A study of Homo sapiens with 12 samples.

Results

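The cyclin-dependent kinase inhibitors were followed on 12 Affymetrix HG-U133 Plus 2.0 arrays of U937 cells, a human histiocytic lymphoma line of monocytic character. The members were CDKN1A, CDKN1B, CDKN1C, CDKN2A, CDKN2B, CDKN2C, CDKN2D and CDKN3, and every probe set that the array's annotation gives to 1 of these symbols was taken. That made 16 of the 54613 probe sets that are not array controls, for 7 of the 8 genes. CDKN1A and CDKN1B had 1 probe set each, CDKN1C 5, CDKN2A 3, and CDKN2B, CDKN2D and CDKN3 2 each. No probe set carried the symbol CDKN2C in the annotation used here, so CDKN2C was not analysed here. No probe set named a member together with another gene.

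The study asked what the zinc finger protein gene ZXDC does while PMA, a phorbol ester that turns on protein kinase C, makes U937 cells take on macrophage-like features. All 12 cultures carried the TRIPZ cassette, integrated and selected with puromycin, from which doxycycline induces a hairpin RNA against ZXDC1 and ZXDC2. The 4 groups, with 3 arrays each, were PMA with doxycycline, PMA, vehicle with doxycycline, and vehicle. The doxycycline dose was 0.5 µg/mL, repeated each day over 4 days. After the first 2 days, 100 nM PMA or the vehicle, 0.1% DMSO, was added for 3 days, the durations being those the labels state. No group here lacked the cassette or carried a hairpin without a target, so an effect of doxycycline itself and an effect of the hairpin cannot be told apart. The labels call the arrays of a group biological replicates, without saying whether they came from separate transductions, and the p-values measure the spread between these arrays.

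Cyclin-dependent kinases drive cells through the division cycle once they are bound by cyclins, and the inhibitors hold them back. The CIP/KIP proteins p21, p27 and p57 (genes CDKN1A, CDKN1B and CDKN1C) bind whole cyclin and kinase complexes. The INK4 proteins bind CDK4 and CDK6 and keep cyclin D away. They are p16 from CDKN2A, p15 from CDKN2B, p18 from CDKN2C and p19 from CDKN2D, and CDKN2A also makes ARF, a protein that stabilises p53. CDKN3 is unlike the others in kind, a phosphatase that removes the activating phosphate from CDK2. In the monocytic lineage, exit from the cell cycle accompanies maturation, and p21 is the inhibitor best known for rising there. U937 cells are known to make no functional p53, the classical activator of CDKN1A.

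The promoters of the 4 members that were called in both PMA comparisons are shown because these genes carry the main result. Each is the 250 bases before a transcription start that RefSeq gives on GRCh38.p14, read 5′ to 3′ along the gene, with motif matches in capitals. For CDKN1A and CDKN2B that start lies inside the gene span given below, which begins farther upstream.
CDKN1A, chr6:36678464-36678713, plus strand: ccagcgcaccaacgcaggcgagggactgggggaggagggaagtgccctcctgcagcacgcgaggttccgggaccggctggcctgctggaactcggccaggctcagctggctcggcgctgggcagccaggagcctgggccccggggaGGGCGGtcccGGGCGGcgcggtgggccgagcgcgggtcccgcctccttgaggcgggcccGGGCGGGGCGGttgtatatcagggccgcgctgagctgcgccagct
CDKN2B, chr9:22009306-22009555, minus strand: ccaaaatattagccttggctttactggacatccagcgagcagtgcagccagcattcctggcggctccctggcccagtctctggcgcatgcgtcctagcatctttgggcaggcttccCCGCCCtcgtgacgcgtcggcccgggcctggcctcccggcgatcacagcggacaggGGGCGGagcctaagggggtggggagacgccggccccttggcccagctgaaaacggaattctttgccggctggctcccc
CDKN1B, chr12:12717118-12717367, plus strand: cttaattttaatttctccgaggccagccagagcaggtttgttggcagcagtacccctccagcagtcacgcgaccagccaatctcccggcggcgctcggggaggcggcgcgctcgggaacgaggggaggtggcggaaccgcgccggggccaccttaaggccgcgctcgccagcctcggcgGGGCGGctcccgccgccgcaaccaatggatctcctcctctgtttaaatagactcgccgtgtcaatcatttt
CDKN3, chr14:54396757-54397006, plus strand: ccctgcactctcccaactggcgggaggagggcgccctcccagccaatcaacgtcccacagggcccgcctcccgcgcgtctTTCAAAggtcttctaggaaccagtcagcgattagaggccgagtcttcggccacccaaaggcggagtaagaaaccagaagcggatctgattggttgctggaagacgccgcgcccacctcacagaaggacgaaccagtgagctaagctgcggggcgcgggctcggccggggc
The capitals mark the GC box GGGCGG, the Sp1-type site, or the CHR TTTGAA, an element of cell cycle genes, each on either strand. CDKN1A held 4 GC boxes, of which the pair nearest the start overlap by 1 base, the nearest 34 bases away. CDKN2B held 2, 1 on each strand, and CDKN1B held 1. CDKN3 held no GC box and 1 CHR on the opposite strand, 164 bases from the start. Of all 35116 RefSeq windows of this length, 42.6% held a GC box and 13.3% a CHR. Neither the AP-1 site TGANTCA (6.57% of windows) nor the CRE TGACGTCA (1.65%) was found in these 4 windows. The E-box CACGTG (6.34%) and the E2F sites TTTGGCGC (0.55%) and TTTCCCGC (1.39%) were not found in them either. A match describes letters and shows no binding.

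The genes lie on GRCh38.p14 at chr6:36676463-36687332 (CDKN1A), chr12:12717368-12722369 (CDKN1B), chr11:2883218-2885775 (CDKN1C), chr19:10566460-10568979 (CDKN2D) and chr14:54397007-54420218 (CDKN3). CDKN2A, at chr9:21967752-21995324, and CDKN2B, at chr9:22002903-22009313, are neighbours at the INK4-ARF locus.

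The deposited values are log2 signals, with array medians between 5.15 and 5.22. Correlation was 0.988 to 0.996 within the groups and 0.954 to 0.967 between PMA-treated and vehicle cultures. Of 9 markers of the monocytic line 8 were measured, with a median percentile of 71.4 among all probe sets (LYZ at 99.0, but SPI1 at 53.7, MPO at 33.1 and FCGR1A at 20.4). Lists for 6 other cell types had median percentiles between 32.8 and 56.1, with VWF, an endothelial marker, at 85.0 and COL1A1, a fibroblast marker, at 76.4. VWF averaged 11.97 in PMA with doxycycline and 11.62 in PMA, against 5.17 in vehicle with doxycycline and 4.69 in vehicle. A percentile is no detection call. The hairpin target ZXDC had 7.39, 7.43 and 7.02 in PMA with doxycycline, against 7.96, 7.89 and 7.51 in PMA. It had 7.16, 7.25 and 7.44 in vehicle with doxycycline, against 8.01, 7.63 and 7.69 in vehicle. All 6 ZXDC probe sets had lower means with doxycycline in both agents, and the chosen one had 70.6% of the signal left in PMA and 71.1% in vehicle. By limma over all genes neither difference passed (adjusted p = 0.613 in PMA and 1 in vehicle). On the arrays numbered 1, the ACTB control probes read higher at the 3′ than at the 5′ end by 1.99 to 2.72 (log2), against 0.71 to 1.64 on the other 8, a measure of RNA or labelling quality that set these 4 arrays apart.

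PMA moved the inhibitors in both directions. CDKN1A and CDKN2B rose, CDKN3 and CDKN1B fell, CDKN2A was called lower on its brightest probe set with doxycycline and on another in both comparisons, and CDKN1C and CDKN2D did not pass the test. Each gene was represented by its probe set with the highest mean, and limma was fitted to all 19775 genes with Benjamini-Hochberg adjustment at 0.05. Without doxycycline 2 of 7 members were called higher and 2 lower, against 12.7% and 18.9% of all genes. With doxycycline 2 were called higher and 3 lower, against 13% and 19.5% of all genes. In each comparison 2 members were higher and 3 lower on all PMA arrays than on any vehicle array of that comparison. Among all genes this held for 18.8% (higher) and 23% (lower) without doxycycline, and for 18.1% and 24.4% with it. In either direction PMA was called for 31.7% of all genes without and 32.5% with doxycycline, so 4 and 5 calls among 7 members are read below by their sizes.

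CDKN1A (probe set 202284_s_at), which encodes p21, changed most. This is its only probe set, and it is among those that the filter on shared sequence, described below, removed. The log2 signal of CDKN1A was 10.56, 11.22 and 11.21 in PMA, against 6.32, 6.47 and 6.42 in vehicle. In PMA with doxycycline it was 10.35, 11.28 and 11.28, against 6.60, 7.33 and 6.97 in vehicle with doxycycline. Every PMA array stood more than 3 log2 units above every vehicle array, and within each PMA group the array numbered 1 was the lowest. The difference was 4.59 ± 0.25 (SE, n = 3 each, limma adjusted p = 1.11e-08) without doxycycline, a 24.1-fold rise with a 95% interval of 16.6 to 35.1. With doxycycline it was 4.0 ± 0.25 (adjusted p = 3.58e-08), a 16-fold rise with an interval of 11 to 23.4. Among all genes this was the 47th highest difference without doxycycline and the 61st with it. CDKN1A stood at the 97.1 percentile of probe sets in PMA and the 67.5 percentile in vehicle. The vehicle percentile lies below that of COL1A1 (76.4), a fibroblast marker, and no detection call was used. The vehicle signal may thus hold background, in which case the folds understate the change. In bulk cultures, more RNA per cell and more cells holding the RNA cannot be told apart, for this gene and for the others.

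CDKN1B (209112_at), which encodes p27, went the other way. It had 10.74, 10.21 and 10.38 in PMA, against 11.72, 11.57 and 11.58 in vehicle. Its values were 10.88, 10.61 and 10.51 in PMA with doxycycline, against 11.90, 11.34 and 11.64 in vehicle with doxycycline. All 6 PMA arrays lay below all 6 vehicle arrays, although CDKN1B remained among the brighter probe sets, at the 95.7 percentile in PMA and the 98.2 percentile in vehicle. The fall was -1.17 ± 0.16 (adjusted p = 6.36e-05) without and -0.96 ± 0.16 (adjusted p = 0.000334) with doxycycline, which left 44.3% and 51.5% of the signal. The transcripts of p21 and p27 thus changed in opposite directions.

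CDKN1C, which encodes p57, showed no called change on any of its 5 probe sets. Its brightest probe set stood at the 67.9 percentile in PMA and 68.2 in vehicle, and its dimmest at 41.9 and 38.0. No detection call was used, so its transcript was not shown to be above background. A flat signal may then be one that was not detected. The brightest, 213348_at, had 6.61, 6.28 and 6.37 in PMA, against 6.92, 6.31 and 6.19 in vehicle, a difference of -0.05 with a 95% interval of -0.45 to 0.34 (adjusted p = 0.873). With doxycycline it had 6.29, 6.28 and 6.57 in PMA, against 6.71, 6.37 and 6.25 in vehicle, a difference of -0.06 with an interval of -0.46 to 0.33. These groups overlapped. As folds the interval without doxycycline ran from 0.734 to 1.26, so changes within that range are not excluded.

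CDKN2B, which encodes p15, had the second largest rise of the members. Its probe set 236313_at had 8.75, 8.65 and 8.60 in PMA, against 5.45, 4.67 and 4.87 in vehicle. In PMA with doxycycline it had 7.19, 8.15 and 8.09, against 5.50, 4.64 and 4.51 in vehicle with doxycycline. All PMA arrays were above all vehicle arrays. The array numbered 1 was the highest of its group in both vehicle groups and the lowest in PMA with doxycycline. The difference in signal was 3.67 ± 0.29 (adjusted p = 3.14e-07) without and 2.93 ± 0.29 (adjusted p = 2.27e-06) with doxycycline. The probe set stood at the 86.9 percentile in PMA, against the 47.1 percentile in vehicle, and at the 81.0 percentile in PMA with doxycycline, against the 44.6 percentile in vehicle with doxycycline. Both vehicle percentiles lie within the range of the median percentiles of the other cell types' markers, and no detection call was used here. The vehicle signal was thus not shown to be above background, so no fold is given for CDKN2B and the differences may understate its change.

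The second CDKN2B probe set, 207530_s_at, was dim in every group, between the 36.5 and 44.4 percentiles, and showed a much smaller change. It had 4.84, 4.85 and 4.97 in PMA, against 4.37, 4.37 and 4.47 in vehicle, a difference of 0.48 ± 0.10 (adjusted p = 0.00294 over all probe sets). With doxycycline it had 4.64, 4.68 and 4.73 in PMA, against 4.47, 4.38 and 4.62 in vehicle, a difference of 0.19 ± 0.10 that did not pass (adjusted p = 0.216). Both probe sets stood higher in PMA, but with the mean of the 2 as the gene's value the CDKN2B difference was 2.07 without and 1.56 with doxycycline, still called. The size of the CDKN2B difference therefore depends on the probe set, of which 207530_s_at was not shown to be above background in any group.

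CDKN2A changed little by comparison, and its probe sets differed. The brightest, 209644_x_at, had 9.39, 9.53 and 9.71 in PMA, against 9.77, 9.79 and 9.88 in vehicle. The difference of -0.27 ± 0.12 did not pass without doxycycline (adjusted p = 0.127), although the groups did not overlap. With doxycycline the same probe set had 9.14, 9.42 and 9.38 in PMA, against 9.72, 10.02 and 9.75 in vehicle, and fell by 0.52 ± 0.12 on the log2 scale (adjusted p = 0.00436). Probe set 207039_at fell in both comparisons. It had 7.01, 7.40 and 7.44 in PMA, against 7.98, 7.96 and 7.90 in vehicle (-0.66 ± 0.14, adjusted p = 0.00348). In PMA with doxycycline it had 6.62, 7.09 and 6.97, against 7.99, 8.01 and 7.83 in vehicle with doxycycline (-1.05 ± 0.14, adjusted p = 7.80e-05). The third probe set, 211156_at, lay between 4.21 and 4.70 on all arrays and was not called (adjusted p = 0.320 and 0.397). The annotation gives all 3 to CDKN2A and does not say which read the p16 or the ARF transcript. The call without doxycycline thus rests on the probe set, and the suffix x marks one whose sequence is shared with other transcripts.

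CDKN2D, which encodes p19, was not called. Its brighter probe set 210240_s_at had 6.83, 6.79 and 6.86 in PMA, against 6.95, 6.62 and 6.78 in vehicle, a difference of 0.04 with an interval of -0.20 to 0.29. With doxycycline it had 6.63, 6.85 and 6.64 in PMA, against 6.82, 7.03 and 6.87 in vehicle, a difference of -0.20 with an interval of -0.44 to 0.05. The dimmer 213586_at lay between 4.22 and 4.84 on all arrays and was not called either. The brighter one stood at the 72.2 percentile in PMA and 71.2 in vehicle, and no detection call was used.

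CDKN3 fell in both comparisons on both of its probe sets. The brighter one, 1555758_a_at, had 9.19, 8.54 and 8.97 in PMA, against 10.94, 11.08 and 11 in vehicle. In PMA with doxycycline it had 9.60, 8.66 and 8.53, against 11.04, 11.18 and 11.04 in vehicle with doxycycline. The 6 vehicle arrays lay between 10.94 and 11.18 and all above the PMA arrays, of which those numbered 1 were the highest in each group. The fall was -2.11 ± 0.23 (adjusted p = 7.14e-06) without and -2.16 ± 0.23 (adjusted p = 5.15e-06) with doxycycline. That left 23.2% and 22.4% of the signal, the 170th and the 194th lowest difference of all genes. The other probe set, 209714_s_at, differed by -2.04 and -2.10 (adjusted p = 2.58e-05 and 1.81e-05).

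**Figure D1:**
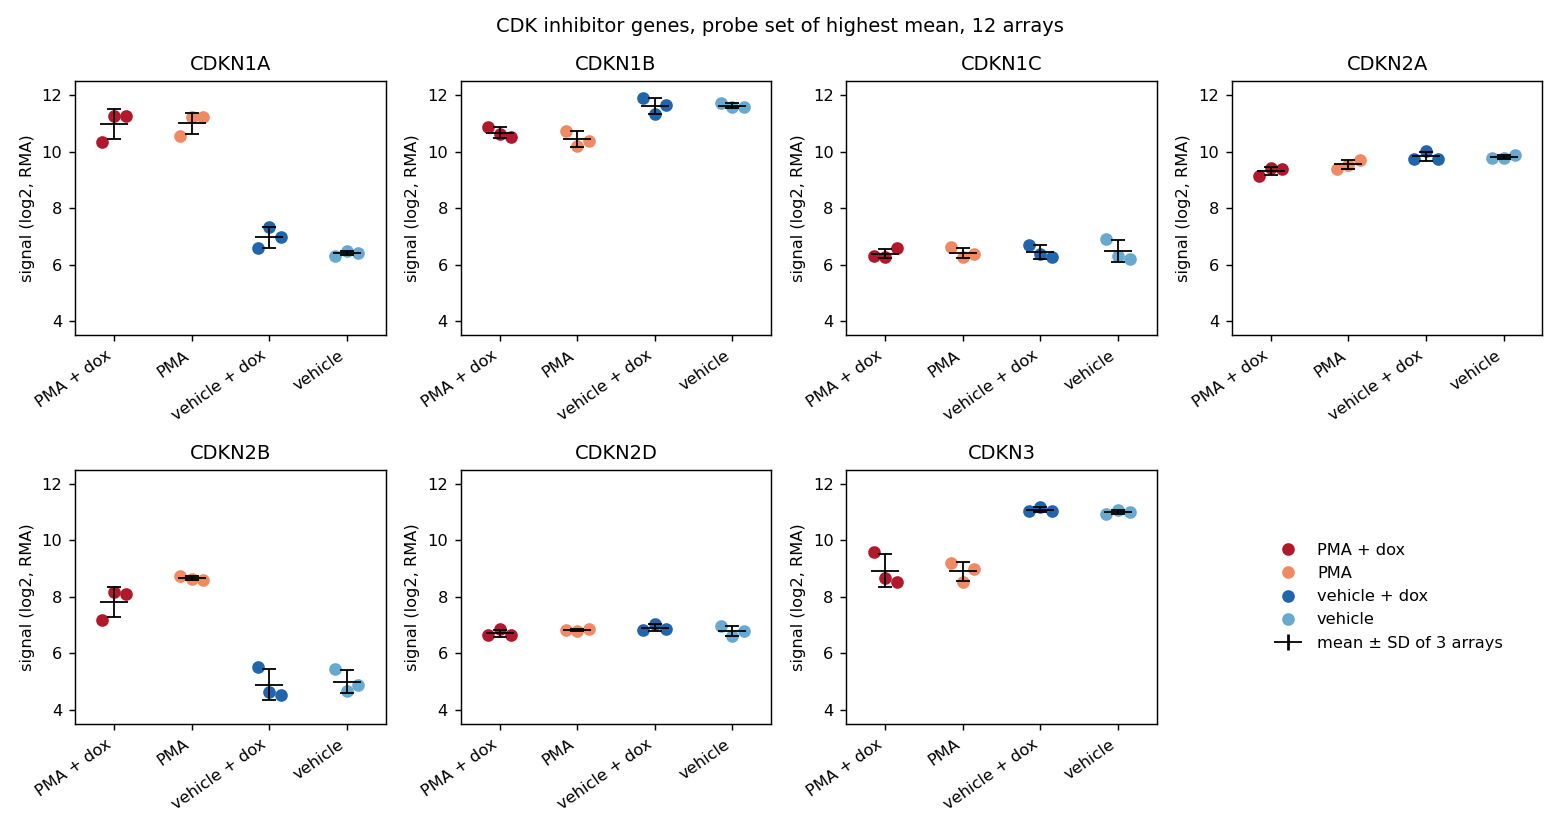
Log2 signal of the members on each array, with the groups PMA with doxycycline, PMA, vehicle with doxycycline and vehicle from left to right; each point is 1 array and each bar a group mean. CDKN1A and CDKN2B stand higher in both PMA groups, CDKN1B and CDKN3 lower, and CDKN1C and CDKN2D overlap.

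Counted by probe set, 3 of 16 were called higher and 4 lower in PMA without doxycycline, against 10.4% and 13.2% of all probe sets. With doxycycline 2 were higher and 5 lower, against 10.7% and 13.8%. Several probe sets of 1 gene share that gene and are not separate evidence. The arrays numbered 1 had the less extreme PMA values for CDKN1A and CDKN3. On arrays 2 and 3 alone the CDKN1A difference was 4.77 without and 4.13 with doxycycline, that of CDKN2B 3.85 and 3.55, that of CDKN1B -1.27 and -0.93, and that of CDKN3 -2.29 and -2.51. The same 4 and 5 members were called on those arrays.

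**Figure D2:**
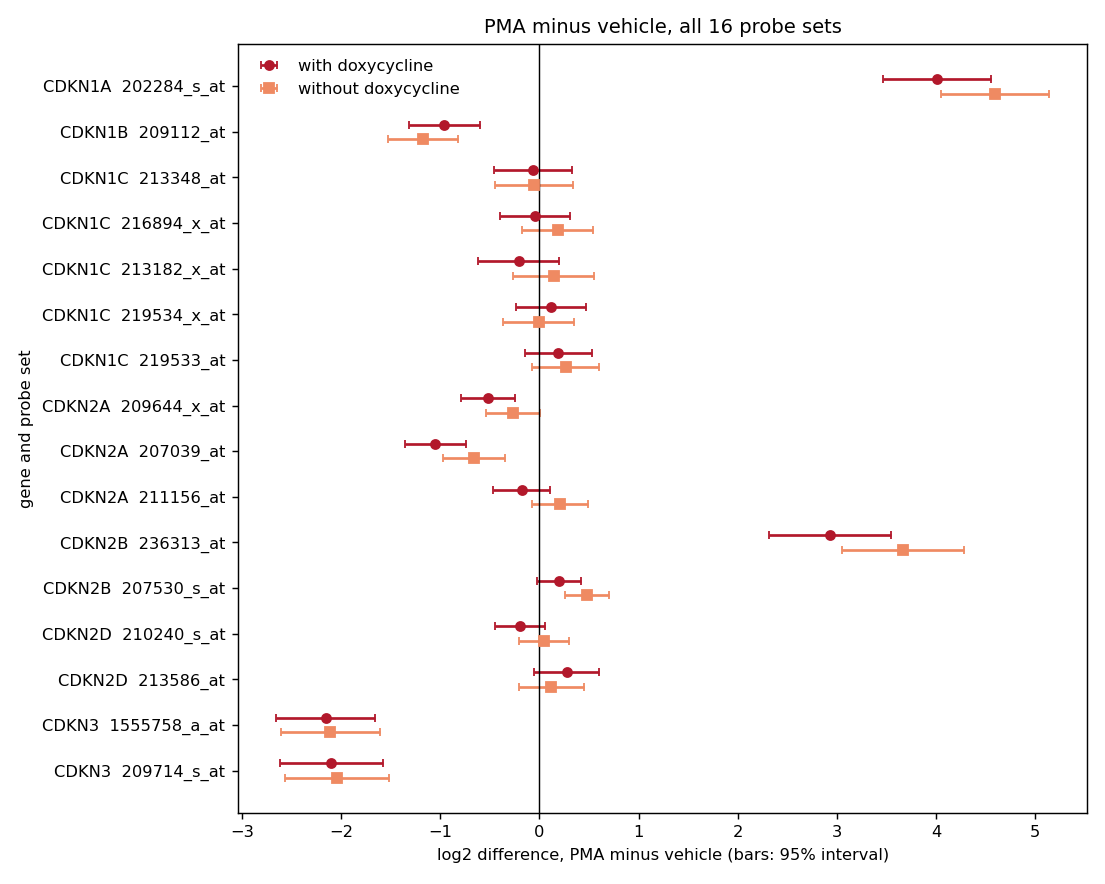
Log2 difference between PMA and vehicle for each of the 16 member probe sets, without and with doxycycline; points are limma estimates and bars 95% intervals. The estimates run from -2.11 to 4.59 without doxycycline and from -2.16 to 4.0 with it.

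Doxycycline, and the hairpin with it, changed no member by the adjusted test. In limma 0 of 7 genes and 0 of 16 probe sets were called for doxycycline in PMA, in vehicle, averaged over both agents, or for the difference between agents. Of all genes 1 was called in PMA (0.00506%) and none (0%) in the other 3 comparisons. Of the members 1 had an unadjusted p under 0.05 in PMA, 1 in vehicle, 1 in the average and 0 in the interaction, against 6.14%, 2.58%, 6.06% and 2.62% of all genes. These comparisons share groups.

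The member that differed most with doxycycline was CDKN2B in PMA-treated cells. The values given above for 236313_at did not overlap between PMA with doxycycline (7.81 ± 0.54, SD, n = 3) and PMA (8.67 ± 0.08), as for 5.9% of all genes. The difference was -0.85 ± 0.29 with a 95% interval of -1.47 to -0.24. The unadjusted limma p was 0.00994 and the adjusted p 0.662. By replicate number the differences were -1.57, -0.49 and -0.51. The first of these is the array of PMA with doxycycline whose ACTB 3′ excess was 2.72, against 1.32 and 1.64 on the other arrays of that group and 2.39, 1.12 and 1.01 in PMA, and the part of RNA quality in the result was not tested. On arrays 2 and 3 alone the difference was -0.50 (adjusted p = 0.242), and without that 1 array -0.54 (adjusted p = 0.953). Probe set 207530_s_at, which reads the same gene, differed by -0.20, -0.17 and -0.23 by replicate number (adjusted p = 0.859). In vehicle the CDKN2B difference was -0.11, with an interval of -0.73 to 0.50, and the difference between agents was -0.74 ± 0.40 (unadjusted p = 0.0886, adjusted p = 1). That difference between agents was -0.43 without array 1 of PMA with doxycycline and -0.30 on arrays 2 and 3 alone.

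In vehicle, CDKN1A showed the largest doxycycline difference of the members. Its arrays did not overlap between vehicle with doxycycline (6.96 ± 0.36) and vehicle (6.4 ± 0.08), as for 5.08% of all genes. The difference was 0.56 ± 0.25 with an interval of 0.02 to 1.10 (unadjusted p = 0.0435, adjusted p = 1). By replicate number it was 0.28, 0.85 and 0.54. In PMA the CDKN1A difference was -0.03, with an interval of -0.57 to 0.51, and the difference between agents was -0.59 (adjusted p = 1). Without array 1 of PMA with doxycycline these values were 0.28 and -0.28, and on arrays 2 and 3 alone 0.06 and -0.64.

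CDKN2A had lower means with doxycycline in PMA on its 3 probe sets, and none passed. These probe sets read 1 gene and are not separate evidence. Probe set 207039_at differed by -0.40, -0.31 and -0.47 by replicate number, a mean of -0.39 ± 0.14 (unadjusted p = 0.0169, adjusted p = 0.771). Probe set 209644_x_at differed by -0.26, -0.11 and -0.33, a mean of -0.23 (adjusted p = 0.838 among genes). In vehicle 207039_at differed by 0.00060 and 209644_x_at by 0.02. The dim 211156_at differed by -0.21, -0.25 and -0.02 in PMA. In vehicle it differed by 0.38, 0.46 and -0.15, a mean of 0.23. CDKN1B differed with doxycycline in PMA by 0.14, 0.39 and 0.13 by replicate number, a mean of 0.22 with an interval of -0.13 to 0.57 (adjusted p = 0.895). CDKN1C, CDKN2D and CDKN3 differed by -0.04, -0.12 and 0.03 in PMA and by -0.03, 0.12 and 0.08 in vehicle. For CDKN3 the intervals were -0.47 to 0.52 in PMA and -0.42 to 0.57 in vehicle, so changes within these bounds are not excluded. An interval is not a limit of detection by the adjusted test.

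**Figure D3:**
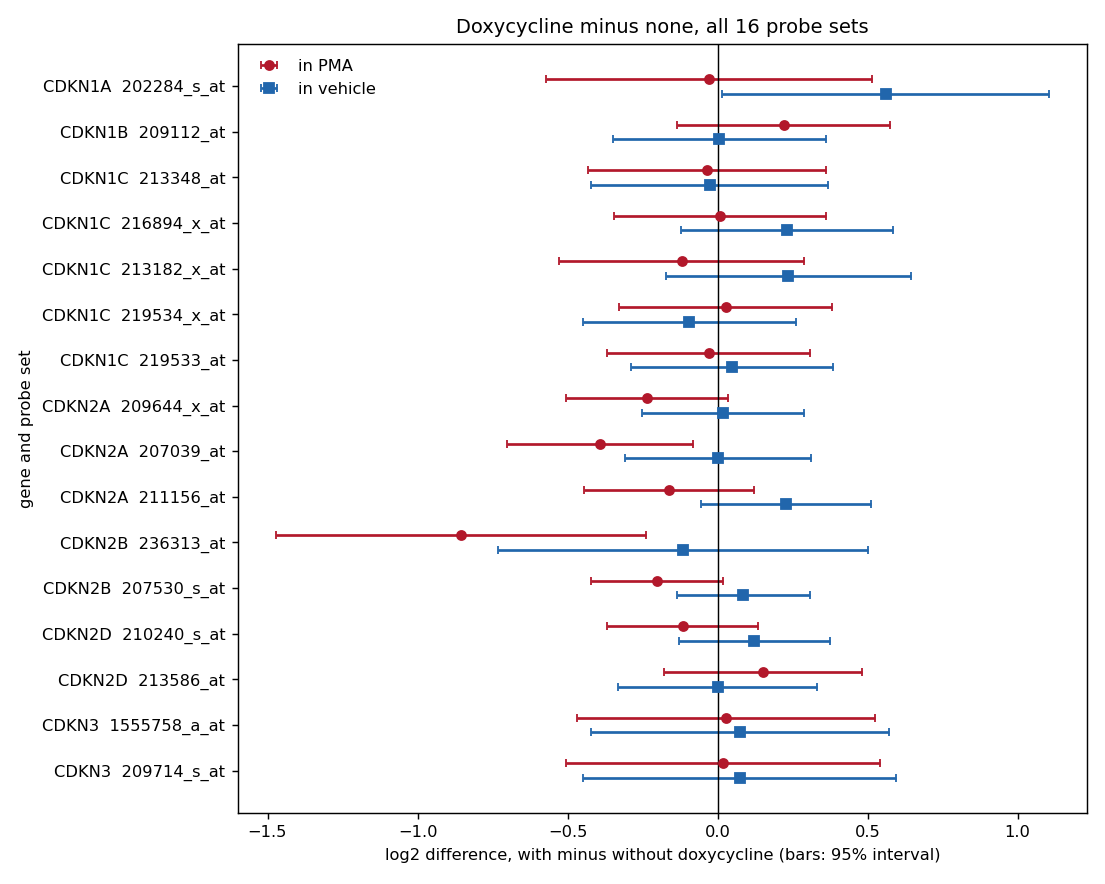
Log2 difference between cultures with and without doxycycline for each member probe set, in PMA and in vehicle; points are limma estimates and bars 95% intervals. CDKN2B in PMA (-0.85) and CDKN1A in vehicle (0.56) lie farthest from 0, and no probe set passed the adjusted test.

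Transcripts of the cyclins and kinases that the inhibitors bind were mostly lower in PMA. Of 12 cyclins and kinases, 1 was called higher and 10 lower in each comparison. Among all genes 12.7% were called higher and 18.9% lower without doxycycline, and 13% and 19.5% with it. The median of the 12 was -1.41 without and -1.40 with doxycycline, against all-gene medians of 0.01 and -0.01. Without doxycycline CCND3, a D-type cyclin that INK4 proteins compete with, rose by 0.85 ± 0.31 (adjusted p = 0.0491), close to the threshold. CCNA2, the S-phase cyclin of CDK2, fell by 2.13 and CCNE2, another CDK2 partner, fell by 2.01 on the log2 scale. With doxycycline CCND1, another D-type cyclin, rose by 0.53 (adjusted p = 0.00234), CCND3 differed by 0.63 (adjusted p = 0.146), CDK6 fell by 2.19 and CCNE2 fell by 2.14. A list of 16 genes that act downstream of the kinases held pocket proteins, E2F factors, their partners and factors of other kinds, FOXM1 among them. Of these 16 none was higher and 9 and 10 were lower (medians -0.52 and -0.63). The factors of other kinds were all among the lower ones, so the counts are not of pocket proteins and E2F factors alone. E2F8, a repressor E2F, changed by -3.21 and -3.51, and FOXM1, which drives G2 and M phase genes, by -2.22 and -2.40. All 24 genes of a proliferation list were lower in both comparisons, with medians of -2.01 and -2.07. Examples are MCM5, a subunit of the replicative helicase, at -2.83 and -2.98, and TYMS, thymidylate synthase, at -2.44 and -2.74.

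Most genes listed for turnover of the p27 protein fell too. Of 11 genes for CDKN1B turnover 0 were higher and 8 lower in each comparison (medians -0.50 and -0.56). Among all genes 18.9% were called lower without and 19.5% with doxycycline. SKP2, the subunit of the ubiquitin ligase that recognises p27, changed by -1.63 and -1.69 (adjusted p = 2.44e-06 and 1.46e-06). CKS1B, its cofactor, changed by -1.78 and -1.86. The arrays measured RNA, so the level of the p27 protein is not known from them. Of 5 measured FOXO and AKT genes that act on CDKN1B, 1 was higher and 0 lower without doxycycline, and 1 and 1 with it. This is a short list beside the 31.7% and 32.5% of all genes called in either direction. FOXO3, a factor that activates CDKN1B, rose in both comparisons, by 0.42 and 0.61. AKT1, which opposes FOXO factors, differed by -0.41 without doxycycline (adjusted p = 0.169) and fell by 0.73 with it (adjusted p = 0.0138).

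The lists around CDKN1A held calls in both directions. Their lower calls were near the share of all genes (18.9% without and 19.5% with doxycycline). Their higher calls were above the share of all genes (12.7% and 13%), in short lists that had no set test. Of 18 measured genes of the p53 list, 5 were higher and 4 lower without doxycycline, and 7 and 3 with it (medians 0.16 and 0.17). PLK3, a stress-responsive kinase, rose by 1.80 and 2.17. ZMAT3, an RNA-binding p53 target, rose by 1.5 without doxycycline and TNFRSF10B, a death receptor, by 1.21 with it. DDB2, a DNA repair gene, changed by -1.36 and -1.48, and FAS, a death receptor, by -1.10 and -1.57. Of 17 measured factors that act on the CDKN1A promoter, 5 were higher and 3 lower without doxycycline, and 4 and 3 with it (medians 0.10 and 0.11). BCL6, a transcriptional repressor, rose by 2.70 and 2.50, and KLF6, an activator of CDKN1A, by 1.99 and 2.01. MYC, which represses CDKN1A, changed by -1.54 and -1.72, and HDAC2, a histone deacetylase, by -0.93 and -0.91.

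For CDKN2B and CDKN2A, 3 lists were examined. Of 8 measured genes of the TGF-beta and SMAD pathway, known to induce CDKN2B, 5 were higher and 0 lower in each comparison (medians 0.64 and 0.66). Among all genes 12.7% were called higher without and 13% with doxycycline. SMAD7, an inhibitory SMAD induced by the pathway, rose by 1.98 and 2.13, and the receptor TGFBR2 by 1.67 and 1.5. Of 7 measured polycomb genes, which silence the INK4-ARF locus in many cells, 2 were higher and 3 lower without doxycycline, and 3 and 3 with it, a small list beside the 31.7% and 32.5% of all genes called in either direction. EZH2, the polycomb methyltransferase, changed by -2.07 and -1.97, and EED, its partner, by -0.76 and -1.0. CBX7 rose by 0.69 and 0.60, and RING1 by 0.44 and 0.50. Of 4 neighbours of the locus only MTAP was called, at -0.39 and -0.58. No gene of any of the 10 lists was called for doxycycline by limma.

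**Figure D4:**
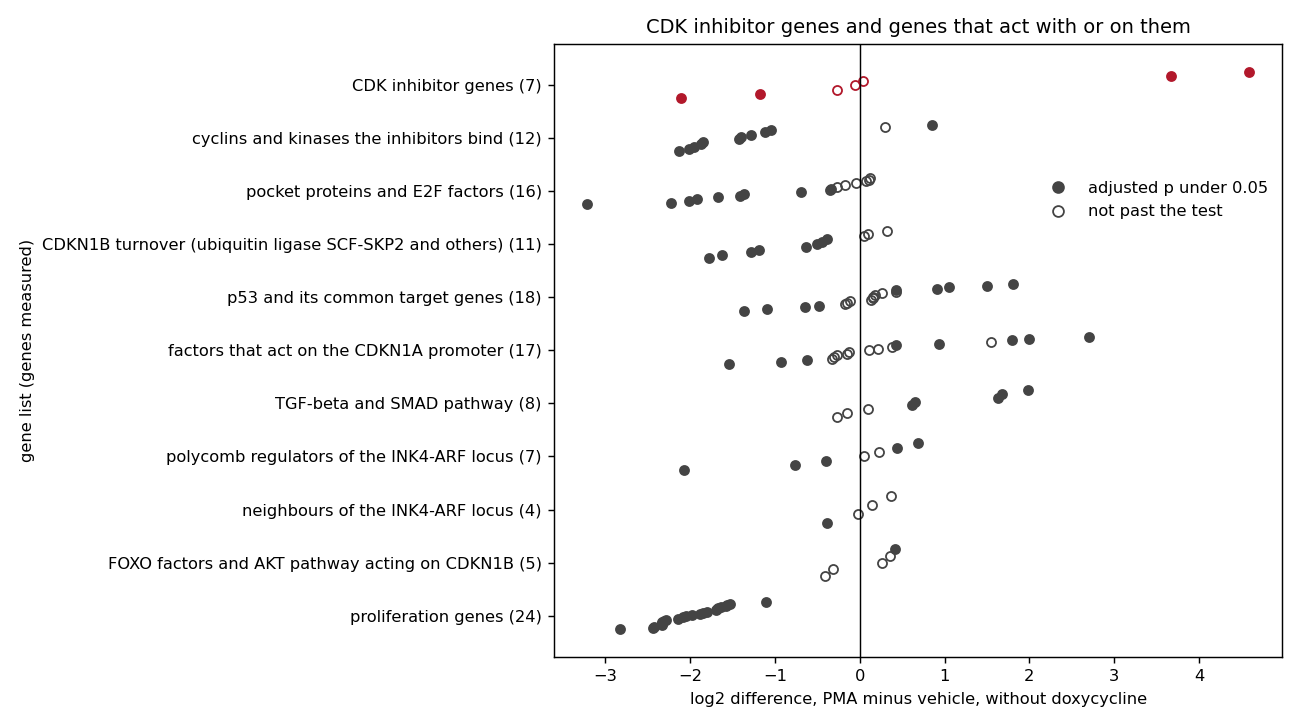
Log2 difference between PMA and vehicle, without doxycycline, for each gene of the 10 lists and for the inhibitor genes. Each point is a gene, filled where it was called and open where it was not. The proliferation list has 24 of 24 genes called lower, while the lists around CDKN1A hold calls in both directions.

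The genes whose pattern over the 12 arrays was most like that of each called member were found by Pearson correlation among 13146 genes with a mean signal of at least 5. The arrays fall into the PMA and vehicle groups, so these values mostly describe the shared PMA difference. CDKN1A was most like FCER1G, an Fc receptor chain of myeloid cells (r = 0.999), PI4K2A, a lipid kinase (0.997), and PLAUR, the urokinase receptor (0.995). CDKN2B was most like HLX, a homeobox factor, and CAMSAP2, which binds microtubule ends (0.991 each). CDKN3 was most like CCNB2, AURKA and NUSAP1, all genes of mitosis (0.998, 0.997 and 0.997). CDKN1B was most like C16orf95 (0.991), POT1, a telomere protein gene (0.990), and FLI1, an ETS factor (0.986). CDKN2A was most like TADA3 (0.981), BPHL (0.974) and PCBD1 (0.972). CDKN3 had 805 genes above an r of 0.95 and CDKN1A 709, against 401 for CDKN2B, 245 for CDKN1B and 17 for CDKN2A.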

How the data were processed

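The deposited values are log2 signals from 12 arrays, 1 per culture, which the authors made with RMA (per the submitters' processing notes; its version is not given in the sources used here). No scaling was added. The labels' protocols give 100 ng of total RNA, amplified by 3′ IVT, as input. Of 54675 probe sets, 62 were controls, 41097 had 1 gene symbol, 1801 had several and 11721 had none. For 41043, the symbol was updated through the Entrez number. Each gene was represented by the single-gene probe set with the highest mean, which left 19775 genes, and no dim gene was removed. No 2 arrays held identical values.

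With limma 3.58.1 (R 4.3.3) a mean per group was fitted to the 12 arrays together, giving 8 residual degrees of freedom and 5.6 from the prior, and separately over all 54613 probe sets. Tests were two-sided, and a call needed a Benjamini-Hochberg adjusted p under 0.05 over all features. The procedure was tested on simulated data. Lists are described by counts and medians, with no set test. Precision is limited by having 3 arrays in a group.

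The members and lists were chosen with earlier results of these data known. All members, their probe sets and ZXDC were named, and of each list up to 2 called rises and 2 called falls per PMA comparison. Likeness named the 3 highest correlations among genes with a mean of at least 5, of which 1 for CDKN2B is not reported here. AKT1 and CCND3 are also given for the comparison in which they were not called.

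Pairing by the labels' replicate numbers was checked by correlating deviations from the group means. Same-numbered arrays with and without doxycycline gave 0.64, 0.29 and 0.32 in PMA and 0.57, 0.25 and 0.31 in vehicle. All were over 0.1, and these arrays were taken as paired. The main fit held no block for the pairs, and a fit with one is given among the alternatives. In PMA, arrays of different numbers reached 0.39. Across agents PMA and vehicle gave 0.16, -0.01 and 0.15, under the limit for 1 number. Alternatives were another choice of probe set, filters on dim or shared-sequence probe sets, quantile normalization, a replicate block, leaving out each array, and the arrays numbered 2 and 3 alone.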

Additional observations from a re-analysis of the deposited data

How the results depend on the processing

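The counts of members called were 4 without and 5 with doxycycline in PMA, and 0 for doxycycline, when each array was left out in turn and under every other alternative but 2. Without probe sets of shared sequence 5 members were left, and 3 were called in each PMA comparison. Every probe set of CDKN1A and CDKN3 was among those removed. With the median of a gene's probe sets 5 were called without doxycycline. CDKN2A without doxycycline gained a call where another probe set stood for it, at -0.66 by the median of its probe sets (adjusted p = 0.00233) and -0.66 without shared sequence (adjusted p = 0.00248). CDKN2B in PMA dropped to 2.07 and 1.56 with the mean of its probe sets and remained called. Over all alternatives CDKN1A lay between 4.48 and 4.81 without and between 3.82 and 4.31 with doxycycline. CDKN3 lay between -2.29 and -1.93 and between -2.51 and -1.96. A replicate block over all groups left 4 and 5 members called in the PMA comparisons and 0 for doxycycline, and a block for each of the 6 pairs left 0 for doxycycline, so the block changed no call. For CDKN2B under doxycycline in PMA the 6-pair block gave an adjusted p of 0.0859 and the block over all groups 0.388, within a range of 0.0859 to 1.00 over all alternatives. The difference of CDKN1A under doxycycline in vehicle ranged from 0.38 to 0.74, and its adjusted p was 0.790 with the 6-pair block. The 6-pair block has no value across agents, and for the averaged effect and the interaction a fit on the groups compared alone is the same as the fit used.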

Other observations

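Related genes were looked at after their values were seen, and they carry no test beyond the limma fit. CDKN2B-AS1, the antisense transcript of the INK4-ARF locus, stood at 2.84 in PMA and 2.70 in vehicle, a difference of 0.14 (adjusted p = 0.344), and differed between the agents by 0.02 with doxycycline (adjusted p = 0.931). CDKN2A-AS1 stood at 5.37 in PMA and 5.10 in vehicle, a difference of 0.28 (adjusted p = 0.0823). With doxycycline it stood at 5.35 in PMA and 5.37 in vehicle, a difference of -0.02 (adjusted p = 0.920). Neither antisense gene was called, and CDKN2B-AS1 lay far below the array medians, where a change may not register. CDKN2AIPNL, a relative of the ARF-interacting protein gene CDKN2AIP, fell by 0.90 in both comparisons (adjusted p = 0.000286 without and 0.000253 with doxycycline). CDKN2AIP itself differed by 0.17 without doxycycline (adjusted p = 0.507) and rose by 0.59 with it (adjusted p = 0.0115). CDK2AP2 rose by 0.47 and 0.67 (adjusted p = 0.0305 and 0.00320), although its PMA and vehicle arrays overlapped without doxycycline. Its relative CDK2AP1, which binds CDK2, differed by -0.24 and -0.38 and was not called. CDK5RAP3 differed by 0.57 without doxycycline (adjusted p = 0.0559) and rose by 0.76 with it (adjusted p = 0.0122). CCNDBP1 differed by 0.26 and 0.01 and was not called. None of these genes was called for doxycycline by limma.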
